A study of Mus musculus with 20 samples.

Results

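The probe sets described here were higher in mouse epidermis injured with imiquimod than in unaffected skin. They were also higher in wax-stripped skin that lacks Grhl3 than in wax-stripped wild-type skin. In the latter they were raised by less than 1 on the log2 scale given next, if at all. They were chosen by 4 conditions on the mean of log2(intensity + 16) over the 2 arrays of a group; the added 16 shrinks differences between low intensities. The injured minus unaffected difference with imiquimod had to be at least 1 in Grhl3 conditional knockout (cKO) and in wild-type (WT) mice. A difference of 1 is a 2-fold change of intensity + 16. Wax-stripped cKO minus wax-stripped WT skin had to be at least 0.7. Wax-stripped WT minus unaffected WT recovery skin had to be under 1. Of 35080 distinct probe sets, 538 met the imiquimod conditions, 113 of these also met the wax genotype condition, and 66 met all 4. These 66 are called members and are numbered by the size of the wax genotype difference, member 1 having the largest.

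The study measured total RNA of dorsal epidermis from adult C57B6 mice on 20 Affymetrix Gene ST arrays. They form 10 groups of 2 arrays, called biological replicates in the labels. The groups were cKO and WT mice in each of 5 conditions: wax-stripped skin on day 4, the injured and the unaffected area on day 4 of imiquimod, and the injured and the unaffected area of recovery skin on day 8. All titles, those of WT mice included, name Krt14cre, so Cre is driven by the keratin 14 promoter of basal keratinocytes and other skin cells are not its target. The imiquimod day 4 mice are labelled female and all others male. Skin that had not been stripped was not analysed here for the wax mice, and unaffected areas came from mice that had received imiquimod elsewhere on the skin.

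Imiquimod is an agonist of an endosomal receptor for RNA and is used as a cream to produce psoriasis-like skin. In mouse skin it is known for an interleukin-23 and interleukin-17 driven response, in which keratinocytes make antimicrobial peptides, alarmins, chemokines and stress keratins and the epidermis thickens. Grhl3 is a transcription factor of the grainyhead-like family, known for its part in the formation of the epidermal barrier and in wound closure. Wax stripping removes the outer cornified layers and so damages the barrier mechanically.

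No member is given a gene name. The probe table pairs 43 of the 66 IDs with 1 symbol, but the pairing does not follow signal: labels of ribosomal protein genes had a median at percentile 54.6 of mean signal (205 probe sets), and labels of olfactory receptors had one at percentile 52.2 (1035 probe sets). Keratinocyte markers, markers of other skin cells and the Grhl3 transcript could not be read for the same reason. The IDs of members 1 and 2, 10562667 and 10486425, are labels of places in the table. In bulk tissue, fewer cells of a type and less RNA per cell cannot be told apart, and this holds for every value below. Median intensity per array lay between 171 and 202 units over the distinct probe sets.

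The arrays of injured recovery skin went against their labelled sex. In 5 probe sets, 0 of them members, a gap of at least 3.67 on the log2 scale parted the 8 arrays labelled female from the 8 male ones of the wax and unaffected recovery groups, and all 4 injured recovery arrays lay on the female side. In the widest of these gaps the injured recovery arrays read 12 to 17.4 intensity units, the other arrays labelled male 3113 to 3871, and the arrays labelled female 10.9 to 13.3. The choice of members did not use the injured recovery arrays. Of the recovery tests below, the genotype test rests on all 4 of them and the test of the response in cKO mice on the cKO pair. Neither can be given without them.

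**Figure D1:**
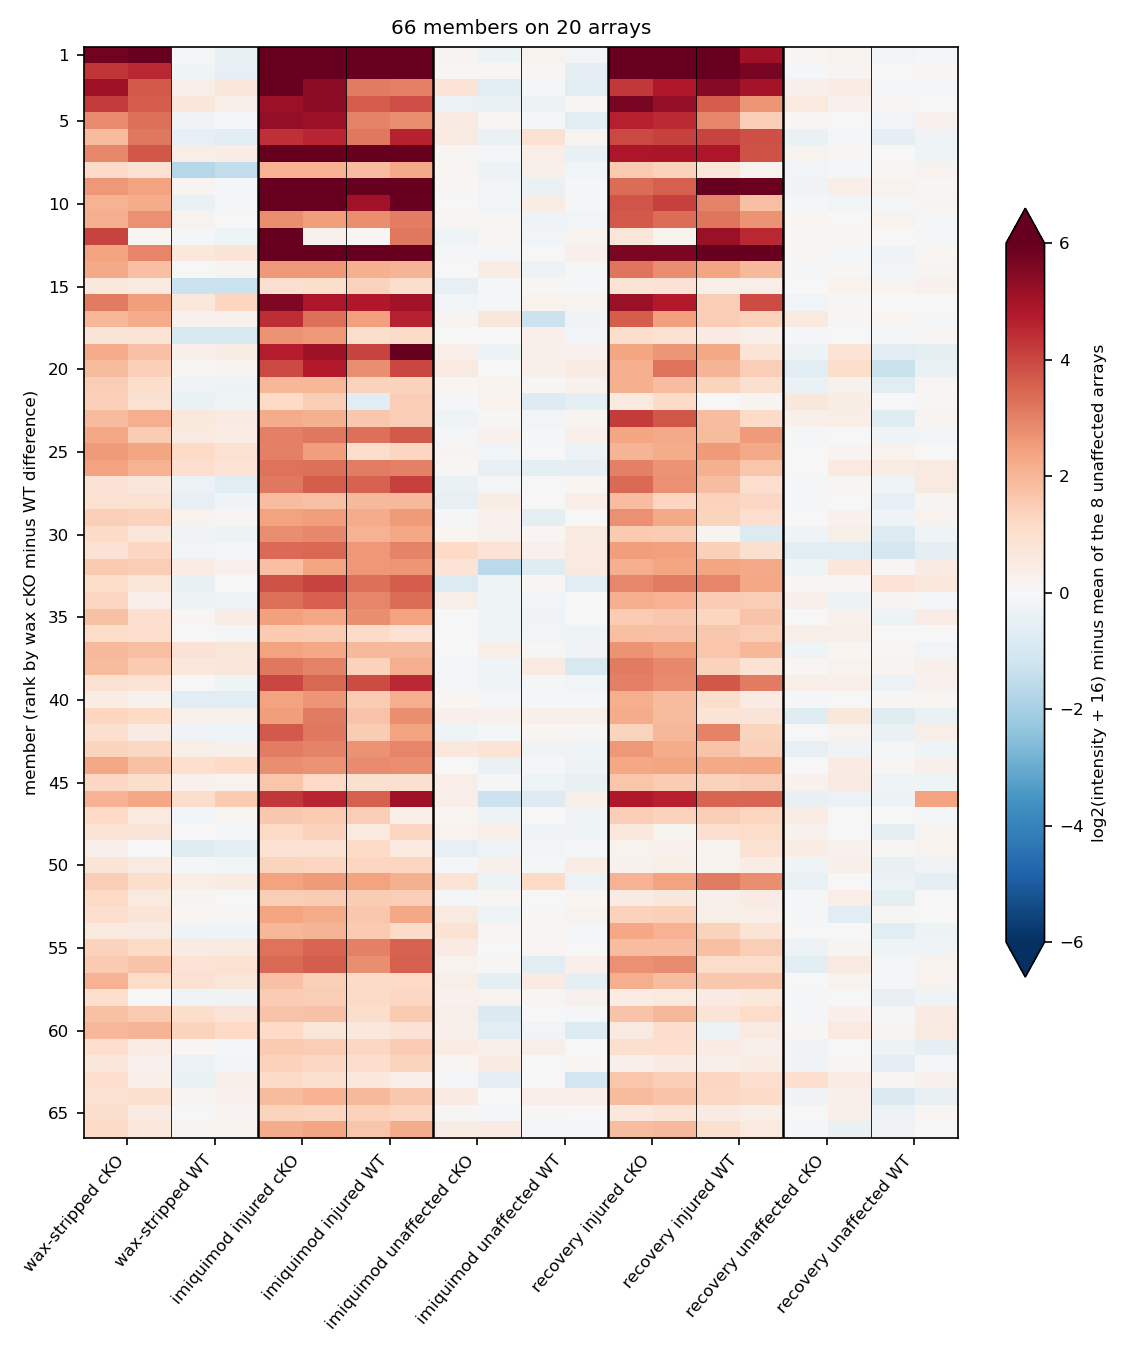
Each row is 1 of the 66 members and each column 1 of the 20 arrays, 2 per group. Colour is log2(intensity + 16) minus the member's mean over the 8 unaffected arrays, and colours saturate at 6. Wax-stripped cKO arrays are red on most rows where wax-stripped WT arrays are pale, and both injured imiquimod groups are red, as the choice of members required.

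The widest genotype differences after wax stripping were in members 1 and 2. Member 1 read 7863 and 9434 intensity units in wax-stripped cKO skin, against 122 and 88.2 in wax-stripped WT skin. Unaffected recovery skin read 138 and 149 in cKO mice and 114 and 119.5 in WT mice. The wax-stripped means were 8648 ± 1111 in cKO and 105 ± 24.2 in WT skin (SD, n = 2 each), a log2 difference of 6.17. Member 2 read 786 and 936 in wax-stripped cKO skin, against 18.7 and 13.5 in wax-stripped WT skin, a difference of 4.77. For both members, wax-stripped WT arrays lay within or below the spread of the 8 unaffected arrays, and wax-stripped cKO arrays stood clear of all of them.

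In members 3 to 7 the wax-stripped cKO arrays also lay above the wax-stripped WT arrays and all 8 unaffected arrays. Member 3 read 948 and 345 in wax-stripped cKO skin, against 21.5 and 29.4 in wax-stripped WT skin. Member 4 read 467 and 312 in wax-stripped cKO skin, against 25.9 and 17.2 in wax-stripped WT skin. Member 5 read 945 and 1307 in wax-stripped cKO skin, against 100.1 and 106 in wax-stripped WT skin. The cKO arrays of members 3, 6 and 12 differed from each other by at least 1 on the log2 scale, which the WT arrays did in 0 of the 66 members. Member 6 read 475 and 1177 in wax-stripped cKO skin, against 76.9 and 67.4 in wax-stripped WT skin. Member 7 read 651 and 1194 in wax-stripped cKO skin, against 102 and 107 in wax-stripped WT skin.

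**Figure D2:**
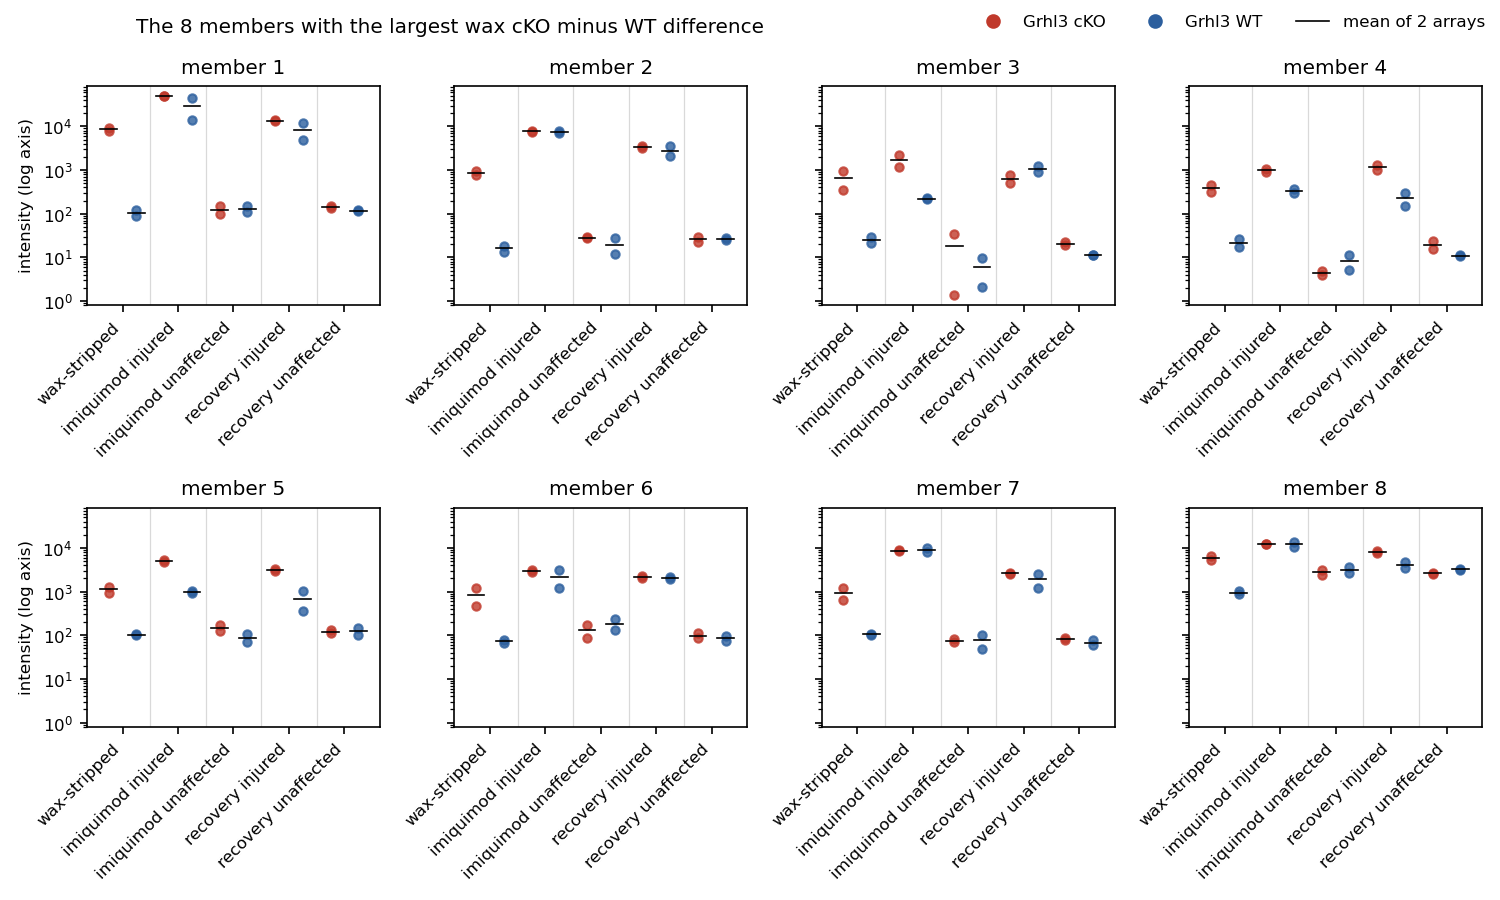
Intensity on a log axis for members 1 to 8 in the 5 conditions, with cKO arrays in red left of WT arrays in blue and a bar at the mean of 2 arrays. In members 1 to 7 the wax-stripped cKO arrays sit above the unaffected arrays and the wax-stripped WT arrays near them, while in member 8 the wax-stripped WT arrays, at 869 and 1019, sit below all unaffected arrays.

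These wax values chose the members and are given without a test. Over the 66 members the wax genotype difference had a median of 1.14 and ran from 0.71 to 6.17. It was at least 3 in 6 members, at least 2 in 12 and at least 1 in 40. Both cKO arrays lay above both WT arrays in all 66 members, against 20.7% of all distinct probe sets. Members 64, 65 and 66 were closest above the threshold of 0.7, at 0.729, 0.710 and 0.705, and the closest below it were at 0.694, 0.692 and 0.689. With imiquimod, members 48, 62 and 61 were closest above 1 in cKO skin at 1.002, 1.005 and 1.136, and the closest below were at 0.596, 0.593 and 0.561. Members 18, 49 and 58 were closest in WT skin at 1.012, 1.014 and 1.033, and the closest below were at 0.898, 0.858 and 0.818. In the wax WT condition members 16, 20 and 19 were just inside at 0.999, 0.972 and 0.956, and the closest outside were at 1.004, 1.009 and 1.011. In number, 267 probe sets failed the wax genotype condition alone and 47 failed the wax WT condition alone, so the edges of the set on these sides are crowded.

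The 2 arrays of a genotype differed by more than the genotypes did in 4 members. Member 12 was the most uneven: it read 1026 and 51.4 in wax-stripped cKO skin, against 42.7 and 36.8 in wax-stripped WT skin. The same probe set read 4474 and 58.5 in injured imiquimod cKO skin, against 50.3 and 547 in injured imiquimod WT skin. Injured recovery skin read 89.6 and 57.5 in cKO mice, against 2295 and 1447 in WT mice, while the 8 unaffected arrays lay between 36.7 and 56.4. It was thus high on 5 of the 12 wax-stripped and injured arrays and near or moderately above the unaffected level on the rest, in no order that follows genotype or treatment. Member 57 read 466 and 227 in wax-stripped cKO skin, against 197 and 172 in wax-stripped WT skin. Member 58 read 174 and 80.2 in wax-stripped cKO skin, against 63 and 63.8 in wax-stripped WT skin. Member 46 met the wax WT condition with uneven arrays of unaffected skin: it read 122 and 183 in wax-stripped WT skin, against 37.4 and 332 in unaffected WT recovery skin. Wax-stripped cKO replicate 1 was the higher of the pair in 49 of 66 members.

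The members differed in what wax stripping did to WT skin. In 39 members wax-stripped WT skin lay within 0.5 of unaffected WT recovery skin on the log2 scale, in 20 it was at least 0.5 above and in 7 at least 0.5 below. Member 8, the clearest of the 7, read 6361 and 5271 in wax-stripped cKO skin, against 2549 and 2673 in unaffected cKO recovery skin. It read 869 and 1019 in wax-stripped WT skin, against 3130.3 and 3342 in unaffected WT recovery skin. Member 15 read 1468 and 1417 in wax-stripped cKO skin, against 911 and 1073 in unaffected cKO recovery skin. It read 366 and 367 in wax-stripped WT skin, against 1036 and 1099 in unaffected WT recovery skin, so that wax-stripped skin lay above unaffected skin in cKO mice and below it in WT mice. Member 18 read 2504 and 2592 in wax-stripped cKO skin, against 1344 and 1483 in unaffected cKO recovery skin. It read 729 and 742 in wax-stripped WT skin, against 1321 and 1524 in unaffected WT recovery skin. In members 15 and 18 the genotype difference after wax therefore held a lower level in WT skin as well as a higher one in cKO skin.

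Measured against its own unaffected recovery skin, wax-stripped cKO skin was higher by at least 1 on the log2 scale in 41 members. In the other 25 the difference was smaller, and members 49 and 63 were not higher, at -0.17 and -0.01 on the log2 scale. The median log2 difference was 1.36 in the members and 1.05 in the 472 other imiquimod-raised probe sets. It was -0.07 over the 26310 probe sets past the low-signal filter. Of the 472, 257 were higher by at least 1, so the rise is not shown to be particular to the members. The wax-stripped cKO arrays took part in the choice. Wax-stripped and unaffected recovery skin differ in day and experiment as well as in treatment, so the effect of wax cannot be told apart from these.

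Wax-stripped cKO skin did not reach the imiquimod level in most members. Both groups took part in the choice of members, and they differ in labelled sex as well as in treatment. Injured imiquimod cKO skin was higher than wax-stripped cKO skin by a median of 1.2 on the log2 scale, by at least 2 in 19 members and by less than 1 in 26, members below it included. It was also higher in 444 of the 472 other imiquimod-raised probe sets, by a median of 0.63. The shortfall after wax is therefore not shown to be particular to the members. Member 9 read 14490.1 and 15608 in injured imiquimod cKO skin, against 674 and 583 in wax-stripped cKO skin. Member 11 was close, at 397 and 321 in injured imiquimod cKO skin and 249 and 383 in wax-stripped cKO skin. Member 60 was the only member with a lower mean in injured imiquimod than in wax-stripped cKO skin, at 786 and 569 against 1373 and 1418. It was also raised in wax-stripped WT skin, at 864 and 774, against 375 and 499.6 in unaffected WT recovery skin.

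A full separation of arrays into 10 above and 10 below was seen in 43 members. In these, all injured arrays and both wax-stripped cKO arrays lay above all unaffected arrays and both wax-stripped WT arrays, as in 165 of the 472 other probe sets raised by imiquimod and in 1.75% of all distinct probe sets. The conditions on imiquimod and wax favour this grouping, and the injured recovery arrays and the unaffected cKO recovery arrays are the part that the choice did not use. The gap was 4.87 in member 1, whose 10 upper arrays read 4879.6 to 49782 and whose 10 lower arrays read 88.2 to 151. It was 4.14 in member 2, at 786 to 7891 above and 12.2 to 29.4 below. In 8 other members the gap was between 1 and 2.44, and in the remaining 33 it was under 1.

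**Figure D3:**
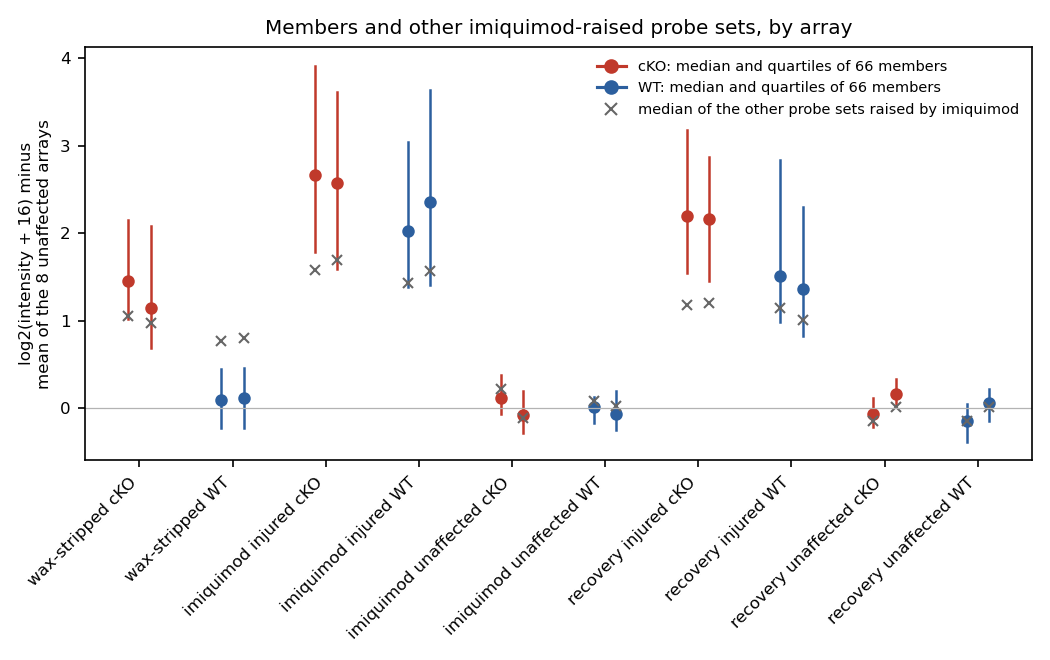
Median (point) and quartiles (line) over the 66 members on each array, as log2(intensity + 16) minus the member's mean over the 8 unaffected arrays, with cKO in red and WT in blue. Crosses give the median of the 472 other probe sets raised by imiquimod in both genotypes. In wax-stripped WT skin the members sit at 0.1 and 0.12, against 0.77 and 0.8 for these others.

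Summed up by array, the members ranked the conditions in the same order in both genotypes. Their median over the mean of the 8 unaffected arrays was 2.66 and 2.57 in injured imiquimod cKO skin, against 2.02 and 2.36 in injured imiquimod WT skin. In injured recovery skin it was 2.19 and 2.16 in cKO mice, against 1.51 and 1.36 in WT mice. In wax-stripped skin it was 1.45 and 1.15 in cKO mice, against 0.1 and 0.12 in WT mice. Unaffected arrays lay between -0.14 and 0.16. In injured recovery skin, which the choice did not use, both cKO arrays were above both WT arrays. The 472 other imiquimod-raised probe sets showed less of a difference there, with medians of 1.18 and 1.2 in cKO mice against 1.15 and 1.01 in WT mice.

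Injured imiquimod skin of the 2 genotypes was compared as a description, since its arrays took part in the choice. The cKO minus WT difference had a median of 0.31 over the members, against 0.02 over the 26310 probe sets. In the 472 other imiquimod-raised probe sets the median was 0.12. The difference was above 0 in 340 of these 472 and in 51 of the 66 members. Both cKO arrays lay above both WT arrays in 29 members and below them in 6, against 22.4% and 24.2% of all distinct probe sets. The difference was at least 1 in members 3, 4, 5, 12, 18, 25, 38 and 42, and at most -1 in 0 members. Member 3 read 2267 and 1159.8 in injured imiquimod cKO skin, against 225 and 217 in injured imiquimod WT skin. Member 5 read 5179 and 4635 in injured imiquimod cKO skin, against 1038 and 912 in injured imiquimod WT skin. Member 18 read 9545 and 9019.6 in injured imiquimod cKO skin, against 3038 and 3234 in injured imiquimod WT skin. In all 3 the genotypes did not overlap. Members 2 and 7 were alike in both genotypes, member 2 at 7604 and 7823 in injured imiquimod cKO skin and 6967 and 7891 in injured imiquimod WT skin. The 2 injured imiquimod WT arrays differed by at least 1 in 11 members, among them member 1, which read 49782 and 49219 in injured imiquimod cKO skin, against 45408 and 13818 in injured imiquimod WT skin.

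In unaffected imiquimod skin both cKO arrays lay above both WT arrays in 14 members and below in 7, against 14.9% and 18.0% of all distinct probe sets. In unaffected recovery skin these numbers were 20 and 5, against 16.7% and 13.0%. The median differences were 0 and 0.13 on the log2 scale. Single members went further: the cKO minus WT difference was 1.17 in member 17 in unaffected imiquimod skin, and 1.06 in member 20 and -1.42 in member 46 in unaffected recovery skin. The WT arrays of unaffected recovery skin took part in the choice, in which a higher level on them favoured membership.

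The response in recovery skin of cKO mice was measured on 4 arrays that the choice of members did not use. Its injured arrays lay on the female side in the 5 probe sets described above and its unaffected arrays on the male side, so injury and the apparent sex of the mice cannot be told apart in it. On day 8 most members were higher in the injured than in the unaffected area: of the 62 members past the low-signal filter, 53 rose in the limma test and 0 fell, at an adjusted p under 0.05 (Benjamini-Hochberg, 26310 probe sets). At an unadjusted p under 0.05, 55 members passed. Over all probe sets 23.5% rose and 26.3% fell. Without the filter, 56 of all 66 members rose and 0 fell, against 17.8% and 22.3% of 35080 probe sets. The share that rose was 85.5% of the members, against 91.0% (417 of 458) of the other probe sets raised by imiquimod in both genotypes, so the rise is not shown to be particular to the members. The median response was 2.11 in the members, 1.32 in the other imiquimod-raised probe sets and -0.06 over all. Without injured cKO replicate 1 the number of all probe sets that rose was 4016 in place of 6174, and 53 members rose as before.

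The largest recovery responses were in members 1 and 2. Member 1 read 13143 and 14072 in injured cKO recovery skin, against 138 and 149 in unaffected cKO recovery skin, a log2 difference of 6.42 ± 0.44 (SE, limma adjusted p = 5.73e-07). Member 2 read 3263 and 3507 in injured cKO recovery skin, against 23 and 29.4 in unaffected cKO recovery skin, a log2 difference of 6.34 ± 0.21 (SE, limma adjusted p = 6.54e-10). The smallest responses were in members 49 and 48. Member 49 read 304 and 315 in injured cKO recovery skin, against 358 and 311 in unaffected cKO recovery skin (limma adjusted p = 0.692). Member 48 read 166 and 116 in injured cKO recovery skin, against 124 and 103 in unaffected cKO recovery skin (limma adjusted p = 0.35). The members that did not pass were 12, 22, 48, 49, 50, 52, 58, 60 and 62. Apart from member 12 they had imiquimod responses in cKO skin close to the threshold of 1, between 1 and 1.46. Members 15, 45, 61 and 65 lay in the same range, at 1.32, 1.25, 1.14 and 1.33, and did pass. All 21 members whose imiquimod response was at least 3 in both genotypes had a recovery response in cKO skin of at least 1, as did 54 of all 66 members.

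**Figure D4:**
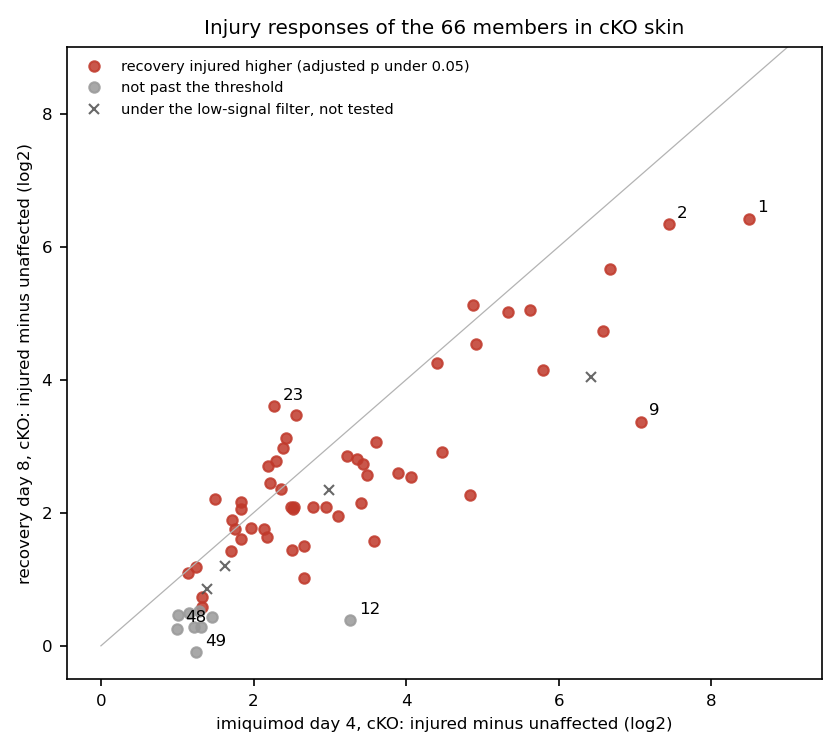
Each point is a member: the day 4 imiquimod response in cKO skin (x axis, log2) and the day 8 recovery response in cKO skin (y axis, log2), with the line of equal responses. Red points passed the test in recovery skin, grey points did not, and crosses were under the low-signal filter. Member 9, at 7.08 and 3.37, and member 12, at 3.27 and 0.39, fall far below the line, and member 23, at 2.27 and 3.6, lies above it.

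The recovery response was at least 1 in 54 of the 66 members in cKO mice and in 47 in WT mice, with medians of 2.11 and 1.61. Of the 472 other imiquimod-raised probe sets, 337 and 290 were at least 1, with medians of 1.31 and 1.16. Over the 26310 probe sets these numbers were 872 and 662. In WT mice the recovery response is a description, because its unaffected arrays took part in the choice and a higher level on them favoured membership. Day 8 and day 4 levels in cKO skin were not far apart: injured imiquimod cKO skin was above injured recovery cKO skin by a median of 0.6 on the log2 scale, and by at least 1 in 15 members. In the 472 other imiquimod-raised probe sets the median was 0.44, and 49 were at least 1. The injured imiquimod and injured recovery groups differ in day and in labelled sex. By the 5 probe sets described above, both lay on the female side.

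The genotypes were compared in injured recovery skin, the only genotype comparison on 4 arrays outside the choice of members. Here 16 of 62 members were higher in cKO than in WT mice and 2 were lower (limma adjusted p under 0.05), or 25.8% and 3.23%. Over all 26310 probe sets, 0.722% were higher and 0.277% lower. Of the 458 other imiquimod-raised probe sets past the filter, 13 were higher and 1 was lower, or 2.84% and 0.218%. The median cKO minus WT difference was 0.59 in the members tested, 0.1 in the other imiquimod-raised probe sets and 0.01 over all. In the 47 probe sets that failed the wax WT condition alone the median was 0.27, and the difference was above 0 in 39. It was above 0 in 53 of the 66 members and in 314 of the 472 other imiquimod-raised probe sets. A difference above 0 is therefore not shown to be particular to the members. Without the filter 11 of all 66 members were higher and 1 was lower, against 0.391% and 0.143% of 35080 probe sets. Both cKO arrays lay above both WT arrays in 41 of 66 members, against 26.1% of all distinct probe sets, and below them in 8, against 23.2%.

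The number of members called depended on single arrays. It was 2 higher without injured cKO replicate 1, 8 without injured cKO replicate 2, 4 without injured WT replicate 2 and 13 without injured WT replicate 1. Over all probe sets 190 were higher with all arrays, and 41, 87, 56 and 104 without the same arrays in turn. With only the 4 arrays of the comparison in the fit, 3 members were higher, of which 1 (member 56) was among the 16, and 2 were lower, of which 1 (member 9) was among the 2. With a pseudocount of 1 the numbers were 10 and 1. Injured WT replicate 1 was the higher of the WT pair in 48 of 66 members.

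Of the members higher in injured cKO recovery skin, member 23 had the smallest adjusted p. It read 2012 and 1473 in injured cKO recovery skin, against 381 and 232 in injured WT recovery skin, a log2 difference of 2.47 ± 0.26 (SE, limma adjusted p = 0.000557). Its injured imiquimod arrays were far lower, at 505 and 469.7 in cKO mice and 331 and 291 in WT mice, so its highest level in any group was in injured cKO recovery skin. Member 4 read 1327 and 981 in injured cKO recovery skin, against 306 and 148 in injured WT recovery skin, a log2 difference of 2.33 ± 0.27 (SE, limma adjusted p = 0.00117). Member 5 read 3331 and 2994 in injured cKO recovery skin, against 1019 and 362 in injured WT recovery skin, a log2 difference of 2.34 ± 0.34 (SE, limma adjusted p = 0.00469). Members 4, 5 and 38 were the only members higher in cKO mice by at least 1 in wax-stripped, injured imiquimod and injured recovery skin alike. Members 30 and 31 followed. Member 30 read 1843 and 1747 in injured cKO recovery skin, against 673 and 329 in injured WT recovery skin (limma adjusted p = 0.00645). Member 31 read 874 and 859 in injured cKO recovery skin, against 409 and 286 in injured WT recovery skin (limma adjusted p = 0.00664). The cKO and WT arrays of these 5 members did not overlap. In the fit of only these 4 arrays all 5 calls were lost, with limma adjusted p = 0.0751 in member 23, 0.117 in member 4, 0.158 in member 5, 0.135 in member 30 and 0.105 in member 31. Without injured cKO replicate 1 the calls of members 5, 30 and 31 were lost, with limma adjusted p = 0.0688, 0.0815 and 0.0802. Those of members 30 and 31 were lost without injured WT replicate 2 (limma adjusted p = 0.0699 and 0.106), and that of member 31 without injured cKO replicate 2 (limma adjusted p = 0.0505).

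The other members higher in cKO mice were 8, 26, 27, 29, 37, 38, 40, 43, 54, 56 and 66, with log2 differences of 0.79 to 1.88. Member 8, whose wax-stripped WT level was below unaffected skin, read 8718 and 7594 in injured cKO recovery skin, against 4836 and 3406 in injured WT recovery skin (limma adjusted p = 0.0355). Its call was lost without injured cKO replicate 1, without injured cKO replicate 2 and without injured WT replicate 2 (limma adjusted p = 0.328, 0.0998 and 0.429), without the filter (0.0514) and in the fit of 4 arrays (0.148). Members 1 and 2, with the largest wax differences, did not pass here (limma adjusted p = 0.432 and 0.533). Member 1 read 13143 and 14072 in injured cKO recovery skin, against 11717 and 4879.6 in injured WT recovery skin.

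Members 9 and 13 were lower in cKO mice, opposite to the wax-stripped skin that chose them. Member 9 read 1133 and 1347 in injured cKO recovery skin, against 8562 and 6616 in injured WT recovery skin, a log2 difference of -2.59 ± 0.22 (SE, limma adjusted p = 0.000103). On day 4 of imiquimod it had read 14490.1 and 15608 in injured cKO skin and 16191 and 24197 in injured WT skin. Member 13 read 1114 and 1097 in injured cKO recovery skin, against 2573 and 1793 in injured WT recovery skin, a log2 difference of -0.95 ± 0.21 (SE, limma adjusted p = 0.0489). In wax-stripped skin member 13 read 102 and 156 in cKO mice, against 18.7 and 22.6 in WT mice. The call of member 9 held without any 1 of the 4 arrays and in the fit of only these arrays. That of member 13 was lost without each array (limma adjusted p = 0.0587 to 0.308) and in that fit (limma adjusted p = 0.151).

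**Figure D5:**
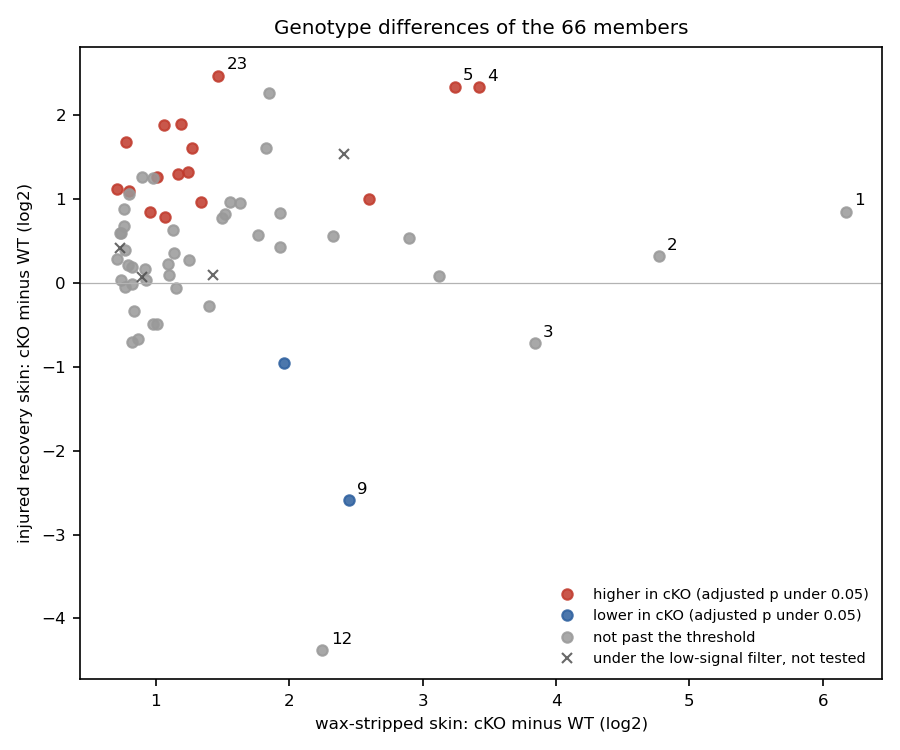
Each point is a member: the cKO minus WT difference in wax-stripped skin (x axis, log2), which chose the members, against that in injured recovery skin (y axis, log2), which did not. Red and blue points passed the test in injured recovery skin. Most points lie above 0 on the y axis, members 9, 12 and 13 lie lowest, and the size of the wax difference does not order the points.

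The size of the wax genotype difference said little about the size of the difference in injured recovery skin. Across the 66 members the Pearson correlation was 0 and Spearman's rho 0.12, and without members 9 and 12 these were 0.13 and 0.2. Members are not independent replicates, each comparison rests on 4 arrays, and the 2 comparisons share none of them.

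In the deposited table, members lay near each other more often than probe sets in general did. Of the 66 members, 30 (45.5%) had another member within 50 rows, against 22.9% of the 472 other imiquimod-raised probe sets and 13.8% of all distinct probe sets that had a member within 50 rows. There were 12 such runs, 10 of them pairs. The longest held members 2, 3, 9, 12, 19, 20 and 25 in a stretch of 22 rows, in which 16 of 21 distinct probe sets were raised by imiquimod in both genotypes. Members 2 and 9 of this run had imiquimod responses of 7.73 and 7.7 in WT skin, and member 25 had 1.35. Of the 7, members 3, 9, 12 and 25 were lower in cKO than in WT injured recovery skin. Members 8 and 18, both lower in wax-stripped than in unaffected WT skin, also lay within 4 rows, as did members 15 and 49 within 2. What the rows stand for is not known here, so no distance in the genome is given.

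Of the 66 members, 4 did not pass the low-signal filter and were tested only in the fit without it: 10, 24, 47 and 63. Member 10 read 78.4 and 87.5 in wax-stripped cKO skin, against 0.673 and 4.72 in wax-stripped WT skin. It read 1547 and 1940.0 in injured imiquimod cKO skin, against 5.6 and 3.32 in unaffected imiquimod cKO skin. In injured recovery skin it read 285 and 359 in cKO mice, against 157 and 61 in WT mice. Member 24 read 86 and 41.6 in wax-stripped cKO skin, against 13 and 11.8 in wax-stripped WT skin. At such levels the pseudocount holds the differences down.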

How the data were processed

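Per the labels' protocols, epidermal RNA was made into biotinylated cRNA for Affymetrix Gene ST arrays. The authors deposited 1 intensity per probe set and array, on a linear scale. The submitters' processing notes name PLIER and Affymetrix Expression Console, with versions not given in the sources used here. Values ran from 0.000106 to 49782. Arrays give no count depth, and their number limits the precision.

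Groups came from the titles. Of 35556 probe sets, 476 repeats of identical values were removed, and log2(value + 16) was taken. The rule used 14 of the 20 arrays; tests were made only on comparisons among the other 6. For these, probe sets under the 25th percentile of mean signal were removed (26310 left) and limma 3.58.1 in R 4.3.3 was fitted as a group-means model over all 20 arrays, with Benjamini-Hochberg adjustment and a threshold of 0.05. Errors are SE from limma or SD over 2 arrays.

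The members and comparisons were chosen with earlier results of these data known. Members described one by one were the first 8, those next to a threshold, those with the smallest adjusted p in the genotype test, the largest and smallest recovery responses, uneven wax replicates and dim members; members 11, 15, 17, 20, 25, 46, 51, 56 and 60 were chosen after their values were seen. Gene lists and cell type markers were not used, since the names do not follow signal. Alternatives were pseudocounts of 1 and 64, quantile normalization, other filters and thresholds, eBayes with trend and robust settings, fewer arrays and the replicate number as a block.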

Additional observations from a re-analysis of the deposited data

Results flagged for a closer look

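In 8 members the genotype difference ran opposite ways in 2 kinds of injured skin: both cKO arrays lay above both WT arrays after wax stripping and below both WT arrays in injured recovery skin. The wax arrays chose the members and all 66 had the first order; the second held in 23.2% of all distinct probe sets, a larger share than 8 of 66. The difference between the conditions was not tested. The log2 cKO minus WT difference in injured recovery skin was -4.38 in member 12, -2.59 in member 9, -0.95 in member 13, -0.72 in member 3, -0.71 in member 51, -0.67 in member 48, -0.49 in member 39 and -0.27 in member 25. Of these, members 9 and 13 passed the limma test in injured recovery skin. Members 3, 9, 12 and 25 lay in the same stretch of 22 rows of the table, and members 13 and 39 lay next to each other. Member 12 was uneven between the 2 arrays of 3 groups. Member 51 read 1057 and 1317 in injured cKO recovery skin, against 2155 and 1736 in injured WT recovery skin. Member 25 read 3097 and 3502 in injured cKO recovery skin, against 4359.7 and 3639.5 in injured WT recovery skin.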

How the results depend on the processing

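The set itself held 107 members with a wax genotype threshold of 0.5 and 40 with a threshold of 1, against 66; leaving out 1 array in turn gave 53 to 89. For the recovery response in cKO skin, the 50th percentile filter gave 3972 probe sets lower, against 6924 in the main fit. It gave 5565 higher, against 6174. Leaving out 1 array in turn gave 4016 to 5633 probe sets higher, 3457 to 5237 lower, 49 to 56 members higher and 0 lower. For the genotype difference in injured recovery skin, a fit to only its 4 arrays gave 30 probe sets higher and 13 lower, and 3 members higher, 1 of them among the 16. Leaving out 1 array in turn gave 41 to 104 probe sets higher and 21 to 39 lower, with 2 to 13 members higher and 1 lower. With a pseudocount of 1, 10 members were higher and 1 was lower; 1 was lower also with no filter, the 50th percentile filter and the replicate block. With the replicate number as a block, 15 members were higher in this comparison and 54 in the recovery response; the labels do not say that a number marks the same mouse, and the correlation of same-numbered deviations was 0.17 and 0.06 in the same order. The cause of these changes was not tested. Single members called in the main fit were followed under the alternatives: 752 values kept their call, 82 lost it and 0 changed direction. The other filters, the eBayes settings, the replicate block and the fit of fewer groups leave the log2 difference as it was. The direction could not change under these settings. Members not called in the main fit were not followed. With 2 arrays a group, small differences can be missed. Some under 1 were called, as in member 15 at 0.73 in the recovery response (limma adjusted p = 0.000494).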
